A study of Homo sapiens with 6 samples.

Results

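The genes described here encode the proteasome, its activators and its assembly chaperones. They were taken from the count table as the protein-coding rows whose symbol begins with PSM, a letter from A to G and a digit. This gave 49 of 30230 rows, or 49 of the 17075 protein-coding rows. By role they comprised 14 constitutive subunits of the 20S core, 4 immunoproteasome subunits, 17 subunits of the 19S cap, 5 other activators or inhibitors and 7 assembly chaperones. The remaining 2 matched the symbol rule without being proteasome subunits, namely PSMC3IP, a meiotic recombination factor, and PSME3IP1, a binding partner of the activator PSME3. The core subunit PSMA8, a testis form, was not analysed here.

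The 20S core is a barrel of stacked rings, in which the outer alpha subunits gate the entrance and some of the inner beta subunits cut proteins. The 19S cap binds ubiquitin-tagged proteins, removes the tag, unfolds the chain with a ring of ATPases and feeds it into the core, and other activators open the gate without ubiquitin. Under interferon, the 3 constitutive catalytic subunits are replaced by immunoproteasome counterparts that favour peptides suited to MHC class I, and dedicated chaperones assemble both parts of the particle.

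RNA sequencing measured polyadenylated RNA in 6 libraries of A549, a human lung adenocarcinoma cell line that the labels call non-small cell lung cancer cells. In 3 libraries the cells received a negative control (NC) and in 3 libraries the cells were depleted of the transcript of FSCN1, which encodes fascin, a bundler of actin filaments (siFSCN1). By the study's methods, depletion used 1 of 3 siRNAs made to target FSCN1 while NC cells got a scrambled siRNA, both given with Lipofectamine RNAiMAX and collected after 48 hours, whereas the control label names a control plasmid. The comparison therefore rests on a single cell line and a single siRNA, and the labels do not say whether the libraries of a group came from separate cultures. The study calls them biological replicates without describing how they were raised, so p-values measure the spread between these libraries, whatever its source.

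The libraries held between 27967301 and 36560919 counts. Log2 expression correlated at 0.991 to 0.994 within groups and at 0.959 to 0.966 between groups. Replicates differed beyond counting noise (chi-square over its degrees of freedom 3.06 or more). FSCN1 fell from 46.1 FPKM ± 1.13 (SD, n = 3) in NC to 3.49 FPKM ± 0.86 (SD, n = 3) in siFSCN1, where FPKM is the authors' fragment count scaled to gene length and library depth. All 6 epithelial markers examined were above 1 FPKM in every library, and PTPRC and CD3E, which define leukocytes and T cells, did not exceed 0.02 FPKM. Of 4 leukocyte markers with a row, only CD14 was above 1 FPKM, and their sum ranged from 2.87 to 3.07 FPKM in NC and from 3.97 to 4.86 FPKM in siFSCN1. The endothelial and fibroblast sums did not exceed 0.04 and 0.65 FPKM. The summed epithelial markers ranged from 3120 to 3500 FPKM in NC and from 1760 to 2120 FPKM in siFSCN1. Keratins carried this sum, while CDH1 and EPCAM were higher in every siFSCN1 library. The part of these shifts in the results below was not tested.

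Most proteasome genes were lower in siFSCN1. Of the 49 members, 48 had enough counts to be tested, and 42 of these (87.5%) fell at an adjusted p under 0.05 (edgeR's quasi-likelihood test with Benjamini-Hochberg adjustment over all 17076 genes tested), where 33.2% of all tested genes fell. A single member, PSMA2, passed in the upward direction, where 35.1% of all tested genes did, and 5 members did not pass. The median log2 fold change, taken as siFSCN1 minus NC after TMM scaling, was -0.50 over the tested members (quartiles -0.68 and -0.31) and 0.03 over all tested genes (quartiles -0.37 and 0.51). The libraries did not overlap for 43 members that were lower in siFSCN1 (89.6%, against 34.4% of all tested genes) and for 1 that was higher (against 36.8%). Together the 49 genes took 0.669% of all counts in NC (SD 0.00235, n = 3) and 0.524% in siFSCN1 (SD 0.00461, n = 3). In bulk RNA, fewer cells expressing a gene and less RNA per cell cannot be told apart.

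The falls were mostly shallow. Only 4 members fell at least 2-fold (8.33% of those tested, against 4.85% of all tested genes), namely PSMB9, PSMB7, PSMG1 and PSME3, with 1 each among the immunoproteasome, constitutive core, assembly and other activator genes. PSMA2 alone was at least 2-fold higher (against 11.7% of all tested genes). The 19S cap had no member past 2-fold in either direction.

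**Figure D1:**
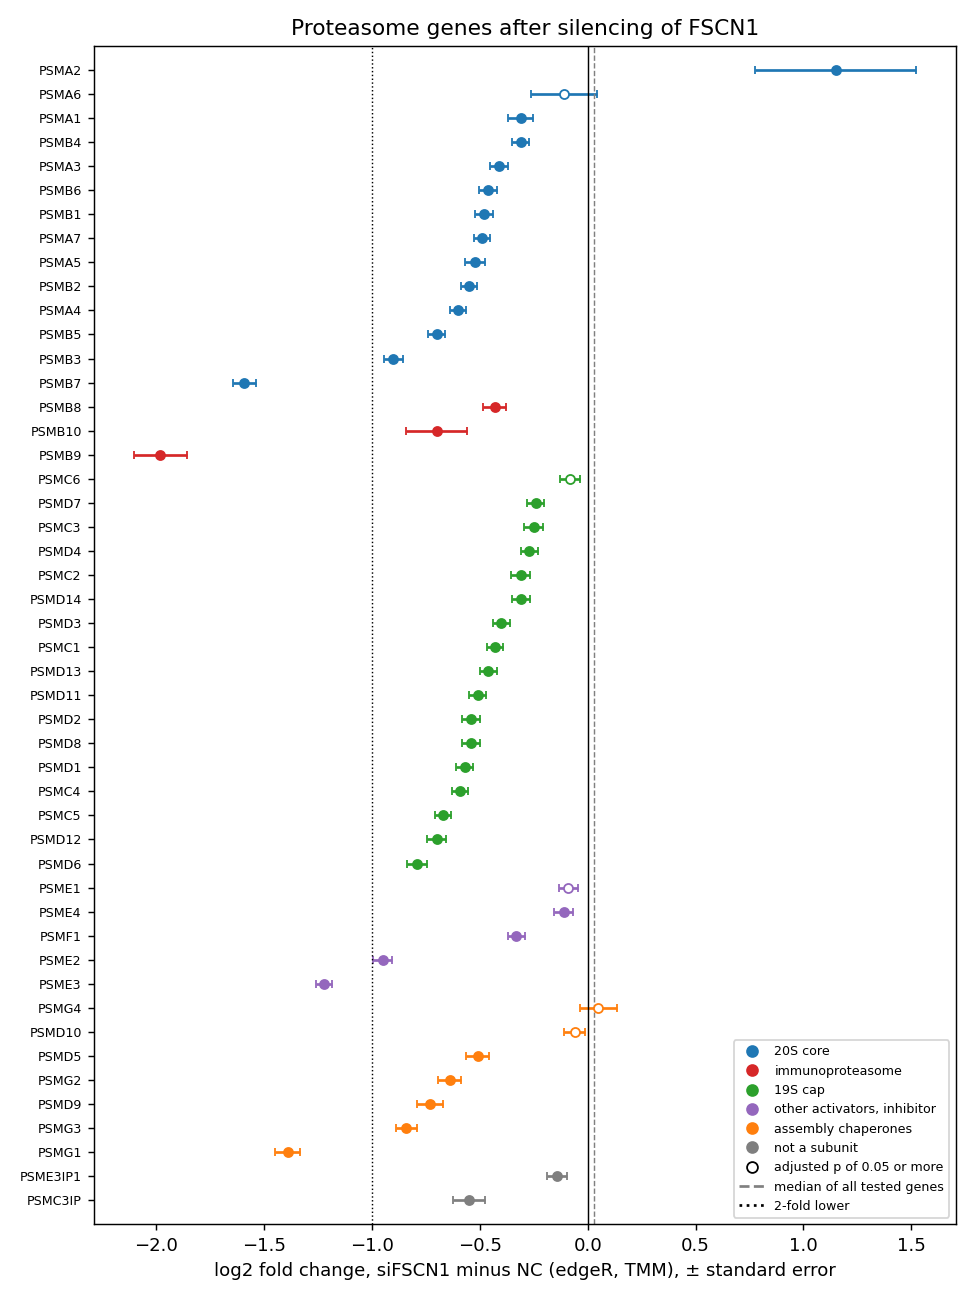
Log2 fold change of the 48 tested members (siFSCN1 minus NC, horizontal axis, bars are standard errors), grouped by role on the vertical axis, with open symbols for members that did not pass the test. All 17 tested cap genes lie between -0.79 and -0.08, whereas PSMB9, PSMB7, PSMG1 and PSME3 lie beyond -1 and PSMA2 alone is far to the right.

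To show what stands around a RefSeq start of the genes that changed most, promoters are given below. They are those of 3 of the 4 members that fell at least 2-fold and of the partner genes PSME1 and PSME2, whose changes differed. Each is the RefSeq window in GRCh38.p14 of 250 bases before and 50 bases after the annotated start, 5′ to 3′ on the gene's strand. PSMB7 had no entry. The windows of PSMB9, PSME3 and PSME2 lie inside the GENCODE spans of these genes, so starts further upstream are not shown. Capitals mark matches on either strand to any of 4 motifs, namely the antioxidant response core TGACNNNGC, which NRF1 and NRF2 bind, the CCAAT box, the ETS core CCGGAAG and the interferon response element, a GAAA followed after 2 free bases by another GAAA.
PSMB9, chr6:32853942-32854241, plus strand: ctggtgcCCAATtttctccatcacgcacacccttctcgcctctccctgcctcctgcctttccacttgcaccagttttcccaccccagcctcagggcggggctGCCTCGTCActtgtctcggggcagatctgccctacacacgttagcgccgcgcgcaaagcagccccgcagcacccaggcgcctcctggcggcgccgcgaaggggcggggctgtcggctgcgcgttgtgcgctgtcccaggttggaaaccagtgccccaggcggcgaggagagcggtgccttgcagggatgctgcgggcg
PSMG1, chr21:39183402-39183701, minus strand: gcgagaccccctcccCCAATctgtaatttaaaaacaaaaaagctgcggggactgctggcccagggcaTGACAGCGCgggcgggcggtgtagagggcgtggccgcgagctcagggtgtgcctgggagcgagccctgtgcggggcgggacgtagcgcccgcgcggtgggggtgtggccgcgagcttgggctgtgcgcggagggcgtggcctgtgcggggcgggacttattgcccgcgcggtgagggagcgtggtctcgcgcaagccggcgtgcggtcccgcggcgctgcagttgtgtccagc
PSME3, chr17:42833147-42833446, plus strand: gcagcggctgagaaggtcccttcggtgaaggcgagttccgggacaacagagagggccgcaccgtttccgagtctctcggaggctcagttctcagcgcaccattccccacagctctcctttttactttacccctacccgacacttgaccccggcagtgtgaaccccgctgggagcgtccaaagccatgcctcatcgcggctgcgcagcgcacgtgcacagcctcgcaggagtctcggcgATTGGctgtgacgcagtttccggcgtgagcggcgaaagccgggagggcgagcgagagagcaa
PSME1, chr14:24135944-24136243, plus strand: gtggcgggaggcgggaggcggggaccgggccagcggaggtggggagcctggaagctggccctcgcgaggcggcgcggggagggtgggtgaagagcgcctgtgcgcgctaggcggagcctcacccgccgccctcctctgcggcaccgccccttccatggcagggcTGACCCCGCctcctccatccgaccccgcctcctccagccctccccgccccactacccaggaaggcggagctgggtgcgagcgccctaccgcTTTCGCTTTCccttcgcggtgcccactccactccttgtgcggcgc
PSME2, chr14:24146561-24146860, minus strand: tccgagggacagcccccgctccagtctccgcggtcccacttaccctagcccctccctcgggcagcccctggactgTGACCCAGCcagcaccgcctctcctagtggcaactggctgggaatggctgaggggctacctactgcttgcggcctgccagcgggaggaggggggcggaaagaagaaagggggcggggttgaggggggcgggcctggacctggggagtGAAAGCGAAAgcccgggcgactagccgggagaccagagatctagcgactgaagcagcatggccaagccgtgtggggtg

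PSMB9 and PSMG1 each held a match to the antioxidant response core and to the CCAAT box, and PSME3 a CCAAT box only. PSME1 and PSME2 carried the same kinds of match, the antioxidant response core and the interferon response element. RefSeq promoters were found for 43 of the 49 members and counted beside all 35116 promoters of the table. The antioxidant response core was present in 13 of 43 members (30.2%) and 13.3% of all promoters, the CCAAT box in 21 (48.8%) and 34.6%, the ETS core in 13 (30.2%) and 10.3%, and the interferon response element in 6 (14%) and 3.57%. The median log2 fold change was -0.64 over the 13 members with the antioxidant response core and -0.43 over the 29 tested members without it. For the CCAAT box these medians were -0.53 with and -0.48 without, for the ETS core -0.43 and -0.52, and for the interferon response element -0.45 and -0.51. These are descriptions with no test. A match of letters does not show binding, and no match says only that these letters are not in this window.

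The 7 alpha subunits of the core, which form the outer rings, were lower with 2 exceptions, where 33.2% of all tested genes fell. PSMA1, PSMA3, PSMA4, PSMA5 and PSMA7 fell, by log2 fold changes between -0.60 (PSMA4, adjusted p = 6e-11) and -0.31 (PSMA1, adjusted p = 0.00016, edgeR's quasi-likelihood test with Benjamini-Hochberg adjustment), though PSMA1 did not pass with library totals (-0.12). PSMA7, with the highest level of the 7, went from 163 FPKM ± 1.70 (SD, n = 3) to 130 FPKM ± 4.69 (SD, n = 3). Summed over the 7 genes, the level was 267 FPKM (SD 0.709, n = 3) in NC and 214 FPKM (SD 7.53, n = 3) in siFSCN1. PSMA1, PSMA2 and PSMA6 added only 9.65, 0.03 and 0.377 FPKM in NC. The rows that share their exons, described below, held 87.5, 42.7 and 50.6 FPKM there and are not in the sum. It may therefore understate the alpha level and should not be set against the beta sum.

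The exceptions were PSMA2 and PSMA6, and both had very few counts for core subunits. PSMA2 (chromosome 7, 42916828 to 42932185, GRCh38, GENCODE v44) was given 12, 8 and 8 counts in the NC libraries (replicates 1, 2 and 3 in order, as in all such lists) and 23, 18 and 30 in the siFSCN1 libraries. All 3 siFSCN1 libraries were higher, at a log2 fold change of 1.15 (SE 0.373, adjusted p = 0.0112, edgeR's quasi-likelihood test). This call was lost without NC replicate 3 (0.94, adjusted p = 0.0604, edgeR) and without siFSCN1 replicate 3 (0.93, adjusted p = 0.0679, edgeR). PSMA6 (chromosome 14, 35278633 to 35317493) was given 90, 90 and 91 counts in NC and 98, 99 and 89 in siFSCN1, at a log2 fold change of -0.11 (SE 0.153, adjusted p = 0.539, edgeR), and its libraries overlapped.

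Both genes share exons on the same strand with another protein-coding gene that has a row of its own. RP11-111K18.1, which overlaps 1445 exonic bases of PSMA2, held 30047 counts over the 6 libraries, against 99 for PSMA2. RP11-561B11.2, which overlaps 919 exonic bases of PSMA6, held 36622 counts, against 557. Both overlapping rows fell in siFSCN1, at log2 fold changes of -0.93 (SE 0.0396, adjusted p = 5e-13, edgeR) and -0.77 (SE 0.0369, adjusted p = 2.8e-12, edgeR). With the overlapping row added to each member, an alternative chosen after seeing the data, PSMA2 had 6095, 5402 and 7388 counts in NC and 3938, 3567 and 3756 in siFSCN1. Its log2 fold change then reversed to -0.92 (SE 0.0395, adjusted p = 5.5e-13, edgeR), PSMA6 fell at -0.76 (SE 0.0367, adjusted p = 3.2e-12, edgeR), and 44 of the 48 tested members fell. How reads were divided between overlapping genes is not given in the sources used here, and the overlapping rows also cover exons of neighbouring genes, so the direction of PSMA2 is uncertain.

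The same holds in part for PSMA1 and PSMB10. PSMA1 held 6362 counts, beside 21734 for the overlapping RP11-140L24.4, and its log2 fold change went from -0.31 to -0.45 when the rows were added. PSMB10 held 602 counts, beside 4244 for CTC-479C5.12, and went from -0.70 to -0.95. PSMD9 shares exons with a row of only 8 counts and stayed at -0.73. In all, 5 of the 49 members share at least 10% of their exonic bases with a protein-coding gene on the same strand and 7 with a gene on the opposite strand. The library kit marks strand by the labels, but whether the counting used strand is not given in the sources used here, so reads from opposite-strand partners, such as NRDE2 over 76.1% of the exonic bases of PSMC1, cannot be told apart from the member's own. Named pseudogenes exist for 17 members, of which PSMC1 has 13 and PSME2 has 6. By the study's methods, only reads with a unique position were counted. Reads that fit a member and its pseudogene equally would then be left out.

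**Figure D2:**
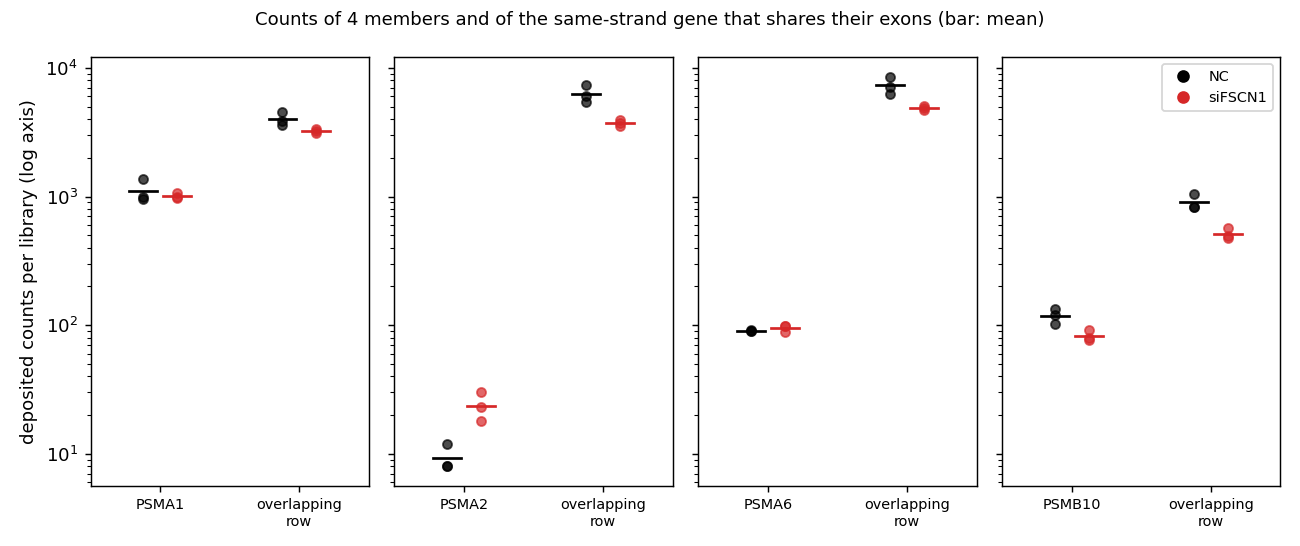
Deposited counts per library (vertical log axis) for PSMA1, PSMA2, PSMA6 and PSMB10 and for the same-strand gene that shares their exons, with NC in black, siFSCN1 in red and bars at the group means. PSMA2 and PSMA6 hold 99 and 557 counts in all, whereas their overlapping rows hold 30047 and 36622 and are lower in all 3 siFSCN1 libraries.

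All 7 constitutive beta subunits fell, where 33.2% of all tested genes fell. The structural PSMB1, PSMB2, PSMB3 and PSMB4 had log2 fold changes between -0.90 (PSMB3, SE 0.0426, adjusted p = 2.3e-12, edgeR) and -0.31 (PSMB4, SE 0.0398, adjusted p = 1.4e-06, edgeR). PSMB3 had the highest level of all members in NC, at 195 FPKM ± 3.01 (SD, n = 3), and 118 FPKM ± 7.45 (SD, n = 3) in siFSCN1. The summed level of the 7 beta genes was 714 FPKM (SD 9.57, n = 3) in NC and 494 FPKM (SD 26.6, n = 3) in siFSCN1.

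PSMB7, the trypsin-like catalytic subunit (chromosome 9, 124353465 to 124415444), fell most among the constitutive core genes. Its level was 79.67, 78.16 and 79.31 FPKM in NC and 32.64, 26.59 and 29.27 FPKM in siFSCN1. The groups were far apart and the siFSCN1 libraries were more spread. The log2 fold change was -1.59 (SE 0.0532, adjusted p = 2.6e-14, edgeR's quasi-likelihood test), so that the siFSCN1 libraries kept 33.2% of the NC level after TMM scaling.

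The other catalytic subunits fell less. PSMB5, the chymotrypsin-like subunit, had 142.00, 143.87 and 145.03 FPKM in NC and 103.86, 101.29 and 93.38 FPKM in siFSCN1. No siFSCN1 library reached the NC range, at a log2 fold change of -0.70 (SE 0.0406, adjusted p = 4e-11, edgeR). PSMB6, the caspase-like subunit, had 116.88, 110.95 and 118.42 FPKM in NC and 97.94, 95.02 and 88.76 FPKM in siFSCN1. Its groups were also separate, at a log2 fold change of -0.46 (SE 0.0422, adjusted p = 1.8e-08, edgeR).

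The balance among the 3 constitutive catalytic transcripts therefore shifted. PSMB7 made up 23.4% of their summed FPKM in NC (SD 0.212, n = 3) and 13.2% in siFSCN1 (SD 1.13, n = 3). The share of PSMB6 went from 34.1% (SD 0.702, n = 3) to 42.1% (SD 0.445, n = 3), and that of PSMB5 from 42.5% (SD 0.650, n = 3) to 44.6% (SD 0.699, n = 3). These shares are ratios within a library, so they do not depend on the scaling between libraries.

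The immunoproteasome catalytic subunits were expressed at low levels in both groups. The 3 that could be tested all fell, where 33.2% of all tested genes fell. PSMB11, the thymus form, was given a single count over the 6 libraries and was not tested. PSMB9, the counterpart of PSMB6 (chromosome 6, 32844136 to 32859851), fell most of all members. Its level was 4.2, 4.57 and 3.99 FPKM in NC and 1.38, 1.28 and 0.96 FPKM in siFSCN1. Every siFSCN1 library was far under the lowest NC library, and the log2 fold change was -1.98 (SE 0.124, 95% interval -2.23 to -1.74, adjusted p = 1.1e-10, edgeR).

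PSMB8, the counterpart of PSMB5, lies beside PSMB9 on the opposite strand, with 139 exonic bases in common. It had 6.36, 6.73 and 6.87 FPKM in NC and 5.77, 5.48 and 5.39 FPKM in siFSCN1. The groups were separate by a small margin, at a log2 fold change of -0.43 (SE 0.0529, adjusted p = 9.8e-07, edgeR), so these 2 neighbours had intervals that did not overlap (-0.53 to -0.33 for PSMB8). PSMB8-AS1, a long non-coding RNA antisense to PSMB8 and on the same strand as PSMB9, with which it shares 174 exonic bases, had a log2 fold change of -0.70 (SE 0.201, adjusted p = 0.00502, edgeR) with 335 counts over the 6 libraries.

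PSMB10, the counterpart of PSMB7, had 2.01, 1.89 and 1.92 FPKM in NC and 1.47, 1.30 and 1.24 FPKM in siFSCN1. Its libraries did not overlap either, at a log2 fold change of -0.70 (SE 0.141, adjusted p = 0.00025, edgeR). The level of PSMB10 is uncertain, because the overlapping row described above held 4244 counts beside its 602.

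Within each library the immunoproteasome form was set beside its constitutive counterpart as a ratio of FPKM. PSMB9 amounted to 3.69% of PSMB6 in NC (SD 0.385, n = 3) and 1.28% in siFSCN1 (SD 0.174, n = 3). The ratio of PSMB8 to PSMB5 moved the other way, from 4.63% (SD 0.135, n = 3) to 5.58% (SD 0.182, n = 3). PSMB10 amounted to 2.45% of PSMB7 in NC (SD 0.0597, n = 3) and 4.54% in siFSCN1 (SD 0.328, n = 3), as PSMB7 fell more than PSMB10. None of these ratios overlapped between groups. Summed, the immunoproteasome forms were 3.66% of all catalytic FPKM in NC (SD 0.129, n = 3) and 3.50% in siFSCN1 (SD 0.0414, n = 3), with library values that did not overlap but lay close together.

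**Figure D3:**
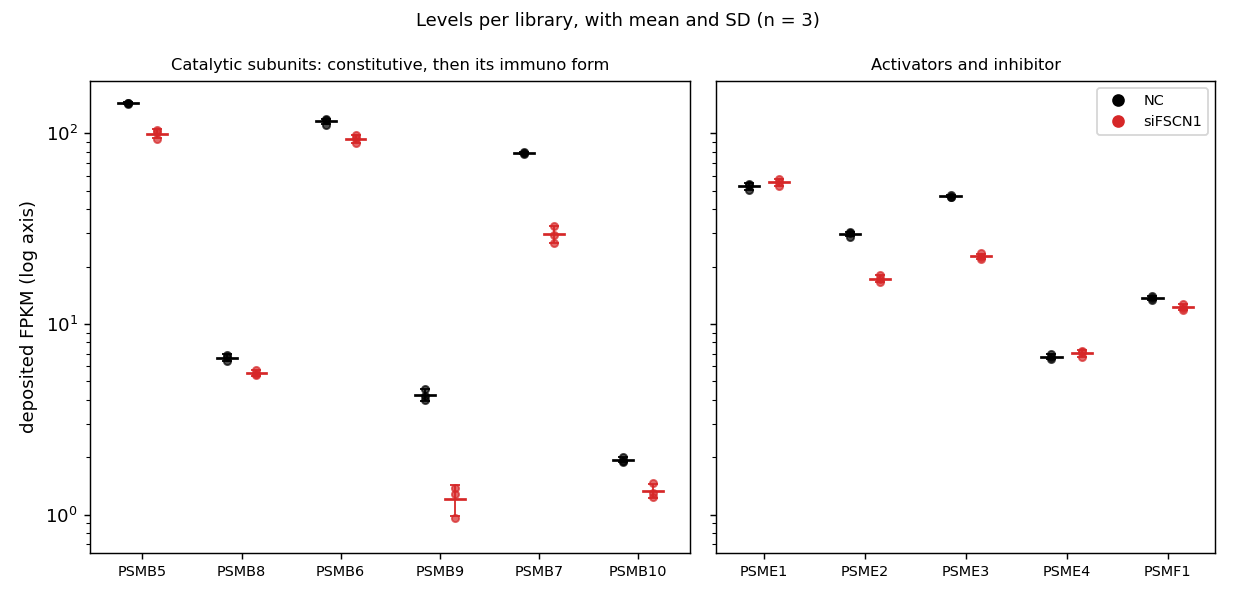
Deposited FPKM per library (vertical log axis, points), with mean and SD of 3 libraries, for the catalytic subunits (left) and the activators and the inhibitor (right), NC in black and siFSCN1 in red. PSMB9, PSMB7 and PSME3 show the widest gaps between groups, and PSME1 overlaps between groups while its partner PSME2 does not.

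The genes of the 19S cap had log2 fold changes between -0.79 (PSMD6) and -0.08 (PSMC6). The 95% intervals of these 2 genes did not overlap (-0.88 to -0.70 for PSMD6 and -0.17 to 0.01 for PSMC6). Of the 17 cap genes, 16 fell and all 17 were lower in every siFSCN1 library after TMM scaling. Over all tested genes 33.2% fell and 34.4% were lower in every siFSCN1 library. Among tested genes with a mean of at least 5 FPKM, 59.1% fell. The cap genes had a median log2 fold change of -0.46. The ATPases of the base, PSMC1 to PSMC6, fell in 5 of 6 cases with a median of -0.37. PSMC5 changed most among them (-0.67, SE 0.0359, adjusted p = 1.2e-11, edgeR). PSMC6 did not pass, with 7.18, 7.42 and 7.45 FPKM in NC and 7.93, 7.42 and 8.03 FPKM in siFSCN1. Its FPKM overlapped between groups and its log2 fold change was -0.08 after TMM scaling (SE 0.0468, adjusted p = 0.13, edgeR), with a positive sign under upper quartile scaling and library totals. Without siFSCN1 replicate 3 it passed at -0.12 (adjusted p = 0.0463, edgeR).

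The other base subunits, which include receptors for ubiquitin and its shuttles, also fell, where 33.2% of all tested genes fell. PSMD1 had a log2 fold change of -0.57 (SE 0.0405), PSMD2 one of -0.54 (SE 0.0414) and PSMD4 one of -0.27 (SE 0.0388), with adjusted p-values of 5.5e-10, 1.8e-09 and 6.8e-06 by edgeR. The fall of PSMD4 did not pass with library totals.

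All 8 lid subunits fell, with a median of -0.48, where 33.2% of all tested genes fell. PSMD6 fell most, from 7.32 FPKM ± 0.0945 (SD, n = 3) to 4.74 FPKM ± 0.165 (SD, n = 3), at a log2 fold change of -0.79 (SE 0.0460, adjusted p = 3.5e-11, edgeR). PSMD7 fell least, at -0.24 (SE 0.0387, adjusted p = 2.3e-05, edgeR), and did not pass with library totals. PSMD14, the deubiquitinase of the lid, had a log2 fold change of -0.31 (SE 0.0410, adjusted p = 2e-06, edgeR). The ATPases summed to 241 FPKM (SD 1.65, n = 3) in NC against 192 FPKM (SD 5.26, n = 3) in siFSCN1, and the other cap subunits to 386 FPKM (SD 0.910, n = 3) against 317 FPKM (SD 9.60, n = 3).

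The other activators differed more from each other than the cap genes did. PSME3, which encodes the nuclear activator PA28 gamma (chromosome 17, 42824385 to 42843760), had 46.62, 46.54 and 47.56 FPKM in NC and 23.50, 21.94 and 22.36 FPKM in siFSCN1. Both groups were tight and far apart, at a log2 fold change of -1.22 (SE 0.0367, adjusted p = 8e-15, edgeR).

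PSME1 and PSME2 encode the alpha and beta chains of the interferon-inducible activator PA28, which assemble into a single mixed ring, and lie close together on chromosome 14. PSME1 had 53.50, 50.44 and 54.04 FPKM in NC and 57.55, 55.75 and 52.78 FPKM in siFSCN1. Its groups overlapped, with a log2 fold change of -0.09 (SE 0.0445, 95% interval -0.18 to -0.01, adjusted p = 0.068, edgeR) that turned positive under upper quartile scaling and library totals. It passed as lower with DESeq2 (-0.11, adjusted p = 0.044), with RLE scaling (-0.11, adjusted p = 0.0378, edgeR), without NC replicate 2 (-0.14) and without siFSCN1 replicate 1 (-0.13), and as higher with the abundance trend removed (0.12), so no direction is given for PSME1. PSME2 had 30.03, 28.76 and 30.25 FPKM in NC and 18.02, 17.24 and 16.57 FPKM in siFSCN1. Its groups were separate, with a log2 fold change of -0.95 (SE 0.0442, 95% interval -1.03 to -0.86, adjusted p = 1.8e-12, edgeR). PSME2 therefore amounted to 56.4% of PSME1 in NC (SD 0.562, n = 3) and 31.2% in siFSCN1 (SD 0.251, n = 3), and the 3 libraries of each group agreed closely on this ratio.

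PSME4, the activator PA200, had 6.55, 6.92 and 6.74 FPKM in NC and 7.22, 6.72 and 7.09 FPKM in siFSCN1. The FPKM overlapped, and the log2 fold change was -0.11 after TMM scaling (SE 0.0440, adjusted p = 0.0349, edgeR) but positive under upper quartile scaling and library totals. It no longer passed without NC replicate 2 (-0.10), without NC replicate 3 (-0.12) or without siFSCN1 replicate 2 (-0.10). PSMF1, the proteasome inhibitor PI31, had 13.38, 13.74 and 14.03 FPKM in NC and 12.73, 11.90 and 12.14 FPKM in siFSCN1. Its libraries were separate, at a log2 fold change of -0.33 (SE 0.0377, adjusted p = 3.9e-07, edgeR).

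Among the 7 assembly chaperones, 5 fell and 2 did not pass, with a median of -0.64, where 33.2% of all tested genes fell. PSMG1 to PSMG4 build the 20S core, with PSMG1 and PSMG2 working as a pair, and PSMG3 and PSMG4 as another. PSMG1 (chromosome 21, 39174769 to 39183488) had 22.46, 20.96 and 22.20 FPKM in NC and 10.16, 9.39 and 8.64 FPKM in siFSCN1. The groups were far apart, at a log2 fold change of -1.39 (SE 0.0593, adjusted p = 5.5e-13, edgeR). Its partner PSMG2 fell less (-0.64, SE 0.0531, 95% interval -0.75 to -0.54, adjusted p = 4.7e-09, edgeR).

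PSMG3 fell at -0.84 (SE 0.0490, adjusted p = 3.9e-11, edgeR), from 27.6 FPKM ± 0.451 (SD, n = 3) to 17.3 FPKM ± 0.785 (SD, n = 3). Its partner PSMG4 did not pass, with 1.14, 1.15 and 1.07 FPKM in NC and 1.23, 1.38 and 1.27 FPKM in siFSCN1. The FPKM of PSMG4 was higher in every siFSCN1 library, but after TMM scaling the groups overlapped at a log2 fold change of 0.05 (SE 0.0857, adjusted p = 0.644, edgeR), and with library totals PSMG4 passed as higher (0.23, adjusted p = 0.0249, edgeR). The 4 core chaperones summed to 65.6 FPKM (SD 1.71, n = 3) in NC and 38.8 FPKM (SD 1.11, n = 3) in siFSCN1.

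The chaperones of the cap base differed among themselves. PSMD9 and PSMD5 fell, at log2 fold changes of -0.73 (SE 0.0592, adjusted p = 3.9e-09, edgeR) and -0.51 (SE 0.0521, adjusted p = 9.3e-08, edgeR). PSMD10, also known as gankyrin, had 20.67, 20.26 and 21.03 FPKM in NC and 21.96, 22.87 and 21.83 FPKM in siFSCN1. Its FPKM was higher in every siFSCN1 library, whereas after TMM scaling the groups overlapped at -0.06 (SE 0.0483, adjusted p = 0.278, edgeR). With library totals it passed as higher (0.13, adjusted p = 0.0285, edgeR). Summed, these 3 chaperones went from 36.4 FPKM (SD 0.507, n = 3) to 33.9 FPKM (SD 0.746, n = 3), most of it PSMD10.

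The 2 members that are not proteasome subunits fell too, where 33.2% of all tested genes fell and 59.1% of those with at least 5 FPKM. PSMC3IP had a log2 fold change of -0.55 (SE 0.0742, adjusted p = 3.2e-06, edgeR) and PSME3IP1 one of -0.14 (SE 0.0463, adjusted p = 0.0101, edgeR). The fall of PSME3IP1 did not pass with upper quartile scaling (-0.03, adjusted p = 0.622, edgeR). Its sign was positive with library totals, on log2(FPKM + 0.1) and log2(FPKM + 1), and with the abundance trend removed. Of 16 further rows whose symbols match but which are not protein coding, only 4 had enough counts to be tested. PSMA3-AS1 and PSMG3-AS1, antisense long non-coding RNAs, rose at log2 fold changes of 1.04 (SE 0.0670, adjusted p = 1.5e-10, edgeR) and 0.90 (SE 0.134, adjusted p = 1e-05, edgeR). Over all tested genes 35.1% rose. The sense partners PSMA3 and PSMG3 fell at -0.41 and -0.84. The other tested antisense RNA, PSMB8-AS1, fell at -0.70 (SE 0.201, adjusted p = 0.00502, edgeR), and so did its sense partner PSMB8 at -0.43. PSMC1P1, a processed pseudogene of PSMC1, fell at -0.93 (SE 0.286, adjusted p = 0.00794, edgeR).

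Abundant transcripts as a whole were lower in siFSCN1, and most proteasome genes are abundant. Among all 5318 tested genes with a mean of at least 5 FPKM, 59.1% fell and the median log2 fold change was -0.22, whereas 40 of the 43 members at that level fell with a median of -0.51. Above 100 FPKM, 81.9% of all tested genes fell with a median of -0.41, beside all 5 members with a median of -0.54. With the trend of fold change on abundance removed, the members' median was -0.27 and that of all genes -0.01. Of the 42 members that fell, 35 still did so. The 7 that no longer passed were PSMB4, PSMC2, PSMC3, PSMD4, PSMD7, PSME3IP1 and PSME4.

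**Figure D4:**
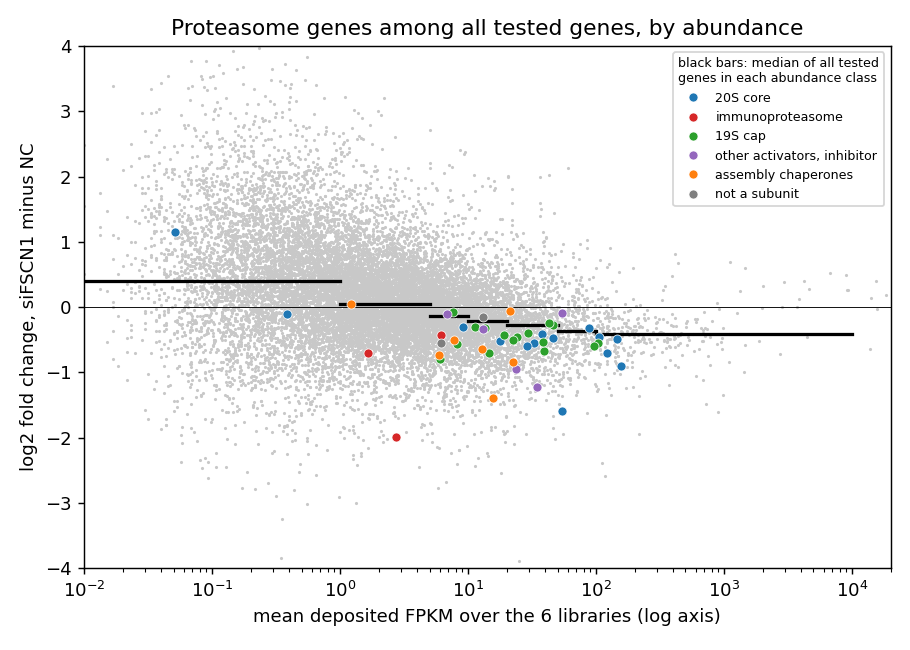
Log2 fold change (siFSCN1 minus NC, vertical axis) against mean deposited FPKM over the 6 libraries (horizontal log axis) for all tested genes in grey and the members in colour by role, with black bars at the median of all tested genes in each abundance class (17 genes lie beyond the vertical axis). Most members lie under the bar of their class, which falls from 0.40 below 1 FPKM to -0.41 above 100 FPKM.

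Partners of the proteasome whose symbols lie outside the PSM series were listed separately. Of 10 such genes 8 fell and 2 did not pass, where 33.2% of all tested genes fell, with a median of -0.38. PAAF1, a chaperone of the cap base, fell most, from 1.94 FPKM ± 0.0577 (SD, n = 3) to 0.583 FPKM ± 0.0351 (SD, n = 3), at a log2 fold change of -1.89 (SE 0.0997, adjusted p = 1e-11, edgeR). ADRM1, a ubiquitin receptor of the cap, had a log2 fold change of -0.79 (SE 0.0481) and AKIRIN2, which brings proteasomes into the nucleus, one of -0.82 (SE 0.0562). POMP, the maturation factor of the core, fell at -0.41 (SE 0.0430, adjusted p = 1.3e-07, edgeR). The small lid subunit SEM1 and the ligase UBE3C did not pass, at 0.04 (SE 0.0498) and 0.02 (SE 0.0484).

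The pathway that raises proteasome genes when proteasome activity falls formed another list. Of its 9 genes, 2 fell, 4 rose and 3 did not pass, with a median of 0.09. Over all tested genes 33.2% fell and 35.1% rose with a median of 0.03, so these counts lie near the background. NFE2L1, which encodes the transcription factor NRF1, rose at a log2 fold change of 0.25 (SE 0.0427, adjusted p = 4.6e-05, edgeR), and DDI2, the protease that releases it, at 0.38 (SE 0.0846, adjusted p = 0.00064, edgeR). VCP, the ATPase that extracts NRF1 and many ubiquitylated proteins from membranes, fell from 49.2 FPKM ± 0.1 (SD, n = 3) to 24.5 FPKM ± 1.03 (SD, n = 3), at -1.17 (SE 0.0362, adjusted p = 1e-14, edgeR). Transcript levels do not show how much NRF1 protein was processed.

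Other lists held genes that supply and deliver ubiquitin. Of 6 genes for ubiquitin and its activating enzymes, 5 fell and 1 did not pass, with a median of -0.40, where 33.2% of all tested genes fell and 81.9% of those above 100 FPKM, with a median of -0.41 in the latter. UBB, a polyubiquitin gene, fell at -0.42 (SE 0.0394, adjusted p = 3.1e-08, edgeR). Of 10 shuttle and delivery factors, 6 fell and 4 rose, beside 33.2% and 35.1% of all tested genes, with a median of -0.25. UBQLN1 fell at -0.99 (SE 0.0478, adjusted p = 3e-12, edgeR) and the autophagy receptor SQSTM1 at -0.72 (SE 0.0399, adjusted p = 1.9e-11, edgeR), whereas MIDN, which carries substrates to the proteasome without ubiquitin, rose at 0.38 (SE 0.0478, adjusted p = 1.5e-06, edgeR).

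The last list held genes of the interferon route that induces the immunoproteasome. Of 10 genes, 5 fell, 4 rose and 1 did not pass, with a median of -0.19, where 33.2% of all tested genes fell and 35.1% rose. IRF1, a transcription factor of PSMB8, PSMB9 and PSMB10, fell at -0.87 (SE 0.0613, adjusted p = 5.2e-10, edgeR), and NLRC5, the activator of MHC class I genes, at -0.93 (SE 0.126, adjusted p = 3.1e-06, edgeR). TAP1, which carries peptides to MHC class I and is a neighbour of PSMB9, fell from 6.39 FPKM ± 0.185 (SD, n = 3) to 3.69 FPKM ± 0.0929 (SD, n = 3), at -0.96 (SE 0.0516, adjusted p = 1.4e-11, edgeR). JAK2, a kinase that relays the interferon signal, rose at 0.68 (SE 0.132, adjusted p = 0.00019, edgeR).

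An siRNA guide can lower other transcripts through its seed, so 3′ UTRs were searched for CTCTGGA, the match to positions 2 to 8 of the guide strand of the siRNA used. The longest 3′ UTR held this match in 6 of the 48 tested members (12.5%) and in 3044 of 13486 tested protein-coding genes (22.6%). The 6 members were PSMC3IP, PSMD1, PSME4, PSMF1, PSMG1 and PSMG4, with a median log2 fold change of -0.44, beside -0.50 over the 42 without a match. Over all these protein-coding genes it was -0.09 with a match and -0.0036 without. Of the 4 members that fell at least 2-fold, only PSMG1 held a match. Its site is shown with 7 bases on each side, in GRCh38, with the seed match in capitals.
PSMG1, chr21:39180364-39180384, minus strand: tgctaaaCTCTGGAatgaatg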

How the data were processed

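Polyadenylated RNA of 6 A549 libraries was analysed, 3 NC and 3 siFSCN1, grouped by sample title. The authors deposited whole-number counts per gene and FPKM, fragments scaled to gene length and depth. The labels name bcl2fastq, TopHat2 and GRCh38 and a Vazyme strand-marking kit, whereas the methods name HISAT2 and another kit. The sources used here do not give the program that counted reads, whether it used strand, or the annotation release. No column of values was left out (0).

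Genes were kept with edgeR's filterByExpr (17076 of 30230), scaled by TMM and compared, with no covariate, in edgeR 4.0.16 (R 4.3.3) by its quasi-likelihood test with Benjamini-Hochberg adjustment over all genes tested. The study used DESeq2, which was run as an alternative (1.42.0). Each standard error was the fitted log2 change divided by the root of its F statistic. FPKM carries no correction for composition, so its ratios run above those after TMM. Sums and ratios of FPKM are descriptions. The depth of 27967301 to 36560919 counts limits precision only for genes with few counts. Positions, exon overlap and 3′ UTRs came from GENCODE v44 (30147 identifiers matched) and promoters from RefSeq. The main fit, DESeq2, the replicate block and limma on log2 scaled counts were tried on simulated counts in which most genes were unchanged. The other alternatives were not tried in this way.

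Values in every library are given for the catalytic subunits, PSME1 to PSME4, PSMF1, members changed at least 2-fold and the 4 largest falls and rises, and otherwise for the extremes of each role. Other genes came from 5 lists, some of whose members are counted but not reported here by name. The members and lists were chosen with earlier results of these data known. The 17 alternatives were RLE, upper quartile and library-total scaling, DESeq2, no filter, a stricter filter (at least 10 counts on average, and 1 CPM in at least 3 libraries), a block for the replicate number, each library left out, limma 3.58.1 on log2(FPKM + 0.1) and log2(FPKM + 1), removal of the abundance trend and, chosen after seeing the data, the addition of overlapping rows.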

Additional observations from a re-analysis of the deposited data

How the results depend on the processing

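PSMB9, PSMB7 and PSMG1 were at least 2-fold lower in all 18 settings and PSME3 in 17, the exception being removal of the abundance trend (-0.96). Of the 42 members that fell, 36 also fell under each of the 3 other scalings, 42 with DESeq2, 41 in each of the 6 fits that left out a library (all but PSME4) and 34 under all 17 alternatives. The median log2 fold change of the tested members (-0.50) was -0.38 with upper quartile scaling, -0.31 with library totals, -0.33 on log2(FPKM + 0.1), -0.32 on log2(FPKM + 1), -0.27 with the abundance trend removed and -0.53 to -0.48 with a library left out. Library totals and upper quartile scaling moved the median of all genes to 0.22 and 0.15, and the median of the members stayed 0.53 under it. The count of members that rose (1, PSMA2) was 3 with library totals (with PSMD10 and PSMG4), 2 on log2(FPKM + 0.1) (with PSMD10) and 0 with the stricter filter, which removed PSMA2, or with overlapping rows added. It was 1 but not PSMA2 on log2(FPKM + 1) (PSMD10) and with the trend removed (PSME1). It ranged from 0 to 1 with a library left out, at 0 without NC replicate 3 and without siFSCN1 replicate 3, in each of which PSMA2 was lost. The count at least 2-fold higher was 0 with the stricter filter, on both FPKM scales, with the trend removed and with overlapping rows added, and 0 to 1 with a library left out. Signs reversed for members near 0. With upper quartile scaling PSMA6 was 0.01, PSMC6 0.04, PSMD10 0.06, PSME1 0.02 and PSME4 0.01. With library totals PSMA6 was 0.08, PSMC6 0.11, PSMD10 0.13, PSME1 0.09, PSME3IP1 0.04 and PSME4 0.08. On log2(FPKM + 0.1) PSMA6 was 0.04, PSMC6 0.08, PSMD10 0.10, PSME1 0.07, PSME3IP1 0.02 and PSME4 0.06, and on log2(FPKM + 1) these were 0.01, 0.07, 0.10, 0.07, 0.02 and 0.05. With the trend removed PSMC6 was 0.08, PSMD10 0.10, PSME1 0.12, PSME3IP1 0.02, PSME4 0.08 and PSMG4 -0.01. PSMG4 was also -0.000403 without NC replicate 3 and -0.02 without siFSCN1 replicate 2, and PSMA2 was -0.92 with overlapping rows added. Replicate numbers were not treated as a pairing, since deviations of same-numbered libraries correlated at -0.035, 0.04 and -0.084. With the replicate block, 42 members fell, 1 rose, 4 were at least 2-fold lower, 1 was at least 2-fold higher and the median was -0.50.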
